A study of Homo sapiens with 12 samples.

Results

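Transcripts of 10 genes that set the pace of the cell cycle were followed through an experiment on 2 ovarian cancer cell lines. The genes were taken from the deposited table by symbol, 10 of the 26475 gene symbols it holds, and the rule that picked them used no measured value, though earlier results of these data were known when it was set. They comprise 4 cyclin-dependent kinases (CDK1, CDK2, CDK4 and CDK6), the kinase WEE1, and 5 CDK inhibitors (CDKN1A, CDKN1B, CDKN1C, CDKN2A and CDKN2C), and every one has a row in all 4 groups. PA-1 is an established line from a teratocarcinoma of the ovary and was grown in DMEM, whereas SK-OV-3 came from an ovarian adenocarcinoma and was grown in RPMI. Each line received either the vehicle DMSO or BAY-850 at 5 µM for 48 h, and 3 replicates of each of these 4 groups gave 12 RNA-seq libraries. BAY-850 is a small molecule that keeps the bromodomain of the chromatin protein ATAD2 from binding acetylated histones. The labels name no edited gene and no sorting by cycle phase, and 1 dose and 1 time were sequenced.

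Cyclin-dependent kinases work only when bound to a cyclin. CDK4 and CDK6 with D-type cyclins, and then CDK2 with cyclins E and A, inactivate the RB1 protein and open S phase, and CDK1 with cyclins A and B drives mitosis. WEE1 holds CDK1 and CDK2 in check by phosphorylating them, the Cip/Kip inhibitors p21 (CDKN1A), p27 (CDKN1B) and p57 (CDKN1C) bind whole cyclin-CDK complexes, and the INK4 inhibitors p16 (CDKN2A) and p18 (CDKN2C) bind CDK4 and CDK6. Much of this control acts on the proteins, whereas the values here are mRNA levels.

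Library totals lay between 34544505 and 51840233 counts, and a library held between 17418 and 18403 genes with at least 1 count, apart from SK-OV-3 BAY-850 replicate 3, the most deeply sequenced, which held 15626. Genes for ribosomal RNA took 7.94% to 16.9% of a library. Of 6 teratocarcinoma markers, 5 were at 1 CPM or more in PA-1 (SOX2 at 224 ± 9.7 CPM with DMSO) and 1, POU5F1, in SK-OV-3. Of 7 epithelial markers, 7 reached 1 CPM in SK-OV-3 and 5 in PA-1. Of 4 markers of other cells, 2 were at 1 CPM or more in every group. The immune marker PTPRC was at 0 in PA-1 and at 0.0644 CPM or less on average in SK-OV-3. CD14, a monocyte marker, was at 0.249 CPM or less on average in every group. PECAM1, an endothelial marker, was at 23.6 CPM in PA-1 and 3.17 CPM in SK-OV-3 with DMSO, and at 25.4 and 2.65 CPM with BAY-850. COL1A1, a fibroblast marker, was present in both lines (462 and 168 CPM with DMSO). With BAY-850 the log2 change of COL1A1 was 0.33 for PA-1 cells (adjusted p = 0.0194, edgeR) and -0.77 for SK-OV-3 cells (adjusted p = 7.10e-05). The summed level of the epithelial markers was 946 CPM in PA-1 with DMSO and 1024 with BAY-850, and 4290 and 3184 CPM in SK-OV-3. ERBB2, a receptor gene on that list, took 2416 and 1782 CPM of the SK-OV-3 sums and 61.3 and 70.0 CPM of the PA-1 sums. The part of these markers in the results below was not tested.

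Levels are CPM, counts relative to the library, on a scale set by TMM factors over all 12 libraries, given with the SD over 3 libraries, and fold changes were tested with edgeR's quasi-likelihood test and Benjamini-Hochberg adjustment over all genes tested, at an adjusted p of 0.05. In bulk RNA, fewer cells in a cycle phase and less RNA per cell cannot be told apart.

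The largest response among the 10 genes was that of CDKN1C, which rose in both lines. BAY-850 raised CDKN1C 2.36-fold in PA-1 and 1.59-fold in SK-OV-3. In PA-1 the only other called change was a 1.22-fold fall of CDK1. In SK-OV-3 all 3 Cip/Kip inhibitors rose, while CDK2 and the INK4 gene CDKN2C fell. Of 16 alternatives of processing, the fall of CDK1 in PA-1 was called in 13 and that of CDK2 in SK-OV-3 in 8. Of the 10 genes tested in PA-1, 2 were called, 1 higher and 1 lower, against a background of 7.13% of the 15212 genes tested, 4.65% higher and 2.48% lower. Of the 9 tested in SK-OV-3, 5 were called, 3 higher and 2 lower, against 20.4% of 15348 genes, 10.8% higher and 9.56% lower. CDKN2A was listed at 0 in all 6 SK-OV-3 libraries and was not tested there. The replicates of the treated and control groups did not overlap for 3 of the 10 genes in PA-1, where this held for 27.5% of all genes, and for 8 of 9 tested in SK-OV-3, where it held for 38.6%.

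**Figure D1:**
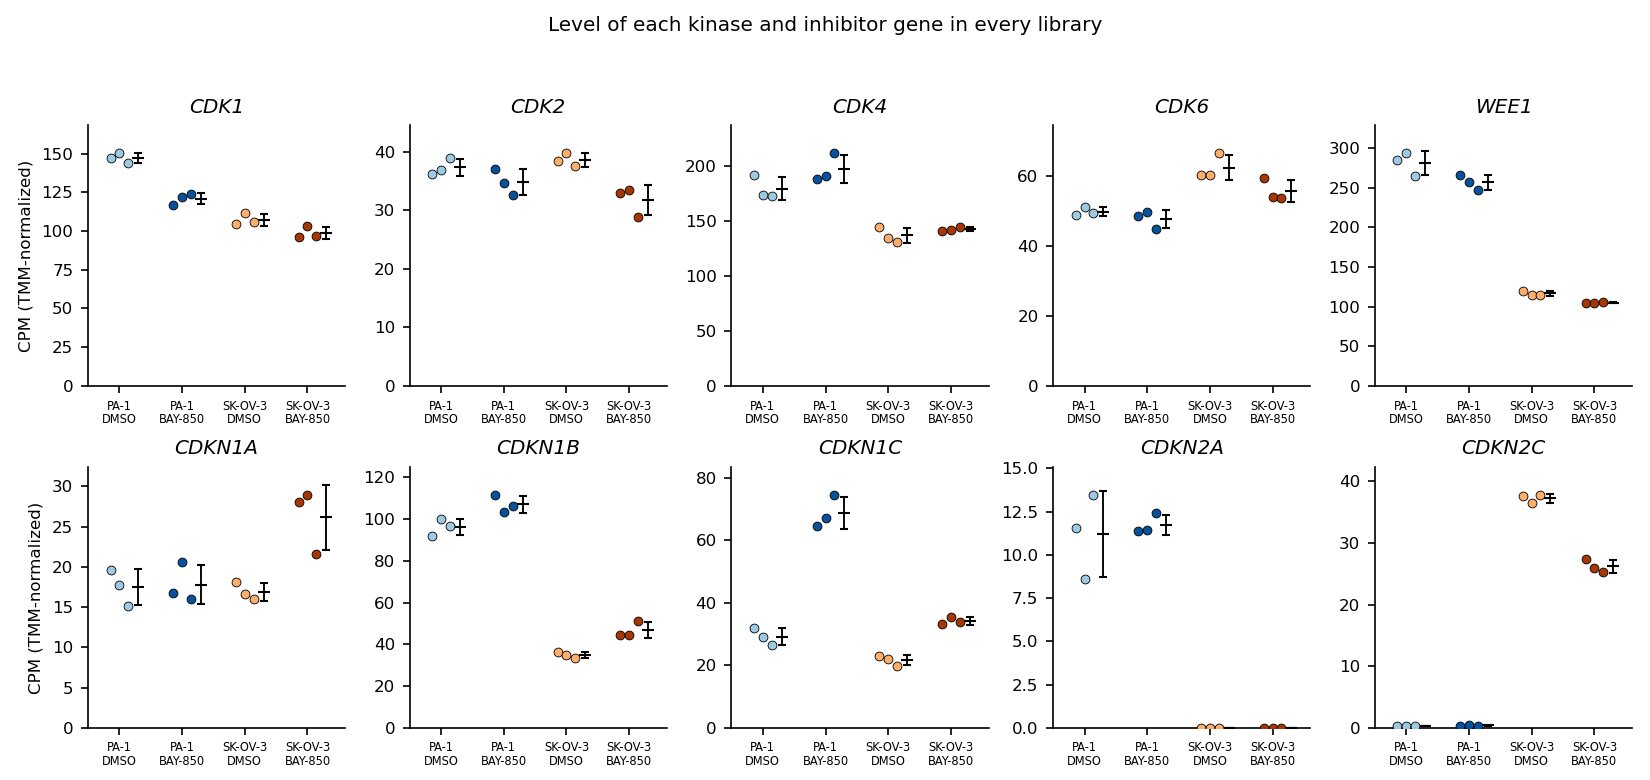
Level of each of the 10 genes in every library, in TMM-normalized CPM on a linear axis from 0 with its own range in each panel. Points are libraries in replicate order and bars are the mean ± SD of 3. CDKN1C is higher with BAY-850 than with DMSO in every library of both lines, CDKN2A is at 0 in SK-OV-3, and CDKN2C is under 1 CPM in PA-1.

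**Figure D2:**
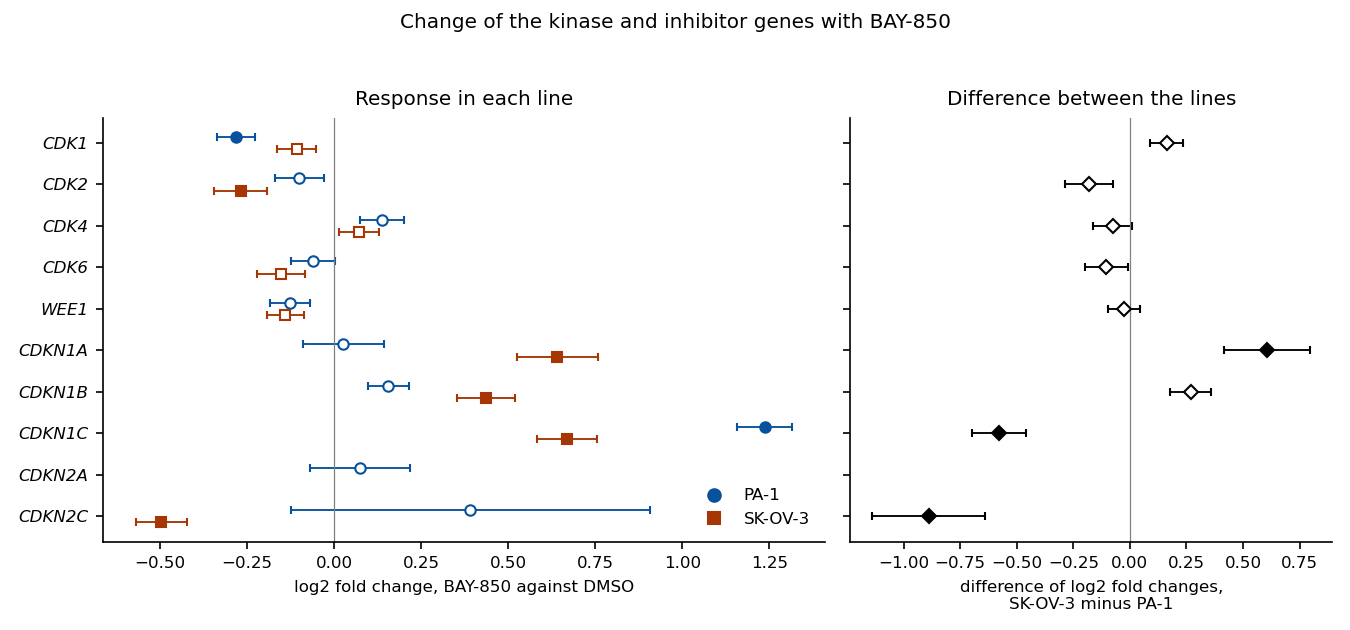
Left, log2 fold change of BAY-850 against DMSO in PA-1 (circles) and SK-OV-3 (squares). Right, the difference of these changes, SK-OV-3 minus PA-1. Bars are standard errors, filled symbols have an adjusted p under 0.05 in edgeR, and CDKN2A has no SK-OV-3 value. Of the kinases, CDK1 in PA-1 lies farthest from 0, at -0.28, and CDKN1C in PA-1 lies farthest right of all, at 1.24.

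Among the kinases, CDK1, the kinase of mitotic entry, lies on chromosome 10 from 60778331 to 60794852 on the plus strand of GRCh38. In PA-1 its level was 147, 150.4 and 144 CPM with DMSO and 117, 122 and 124 CPM with BAY-850. The treated libraries lay below all 3 controls. CDK1 fell by 0.28 on the log2 scale (standard error 0.0549, adjusted p = 7.27e-03, edgeR). In SK-OV-3 it was 104, 112 and 106 CPM with DMSO and 96.0, 103 and 96.7 CPM with BAY-850. Here too the groups did not overlap, but the change of -0.11 did not pass the test (adjusted p = 0.214), nor did the difference between the lines (0.16, standard error 0.072, adjusted p = 0.151). The call in PA-1 was lost once each library's trend on GC content was removed (-0.16, adjusted p = 0.139, and 0.191 with the replicate block as well) and without PA-1 DMSO replicate 2 (-0.26, adjusted p = 0.0549). The transcript of CDK1 has a GC content of 37.0%, the lowest of the 10 genes.

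The promoter of CDK1 is shown because genes of the late cell cycle are known for CCAAT boxes, which NF-Y binds, for the cell cycle homology region TTTGAA, and for E2F sites, and these can be looked for in its letters. RefSeq promoter windows on GRCh38.p14 were found for 7 of the 10 genes, not for CDK2, WEE1 and CDKN1C. Of the windows, the 250 bases before the start were searched on both strands for the CCAAT box, for TTTGAA and for 3 E2F strings, GGCGGGAA together with TTTGGCGC and with TTTCGCGC, which are printed in capitals. They were also searched for strings left in lower case, namely the repressor element GCGCGG, the cAMP element TGACGTCA, the TATA box TATAAA, the E box CACGTG, the amino acid response element TGATGCAA and the GC box GGGCGG. On either strand, CCAAT was in 32.0% of all 35116 windows, TTTGAA in 13.3%, GGCGGGAA in 2.72%, TTTGGCGC in 0.550% and TTTCGCGC in 0.439%. The shares of the other strings were 27.1% for GCGCGG, 1.65% for TGACGTCA, 10.7% for TATAAA, 6.34% for CACGTG, 0.772% for TGATGCAA and 42.6% for GGGCGG. CDK1 has 2 starts in the table, and the window of the second one lies at chr10:60778228-60778477 on the plus strand:
CDK1: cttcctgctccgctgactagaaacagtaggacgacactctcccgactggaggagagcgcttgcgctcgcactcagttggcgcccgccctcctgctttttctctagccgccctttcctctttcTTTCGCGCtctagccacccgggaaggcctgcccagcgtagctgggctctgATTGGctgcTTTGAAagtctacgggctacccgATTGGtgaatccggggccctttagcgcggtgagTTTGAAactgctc
It held TTTGAA 2 times, beginning 69 and 13 bases before the start, CCAAT 2 times on the opposite strand (read as ATTGG), beginning 78 and 46 bases before it, and TTTCGCGC once, 128 bases before it. Of the strings left in lower case, this window held GCGCGG once, beginning 23 bases before the start. It also held GGGCGG 2 times on the opposite strand, 168 and 145 bases before the start. The window of the other start held CCAAT and TTTGAA once each, and also GGGCGG once on the opposite strand. A match of letters is a description and shows no binding.

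CDK2, the partner of cyclins E and A at the start of S phase (chromosome 12, 55966769 to 55972784), was 36.1, 36.9 and 38.9 CPM in PA-1 with DMSO and 37.0, 34.7 and 32.6 CPM with BAY-850. These groups overlapped, and the change of -0.099 did not pass the test (adjusted p = 0.428). In SK-OV-3 it was 38.4, 39.8 and 37.5 CPM with DMSO and 32.9, 33.5 and 28.8 CPM with BAY-850. All 3 treated libraries were lower, and CDK2 fell by 0.27 (standard error 0.0772, adjusted p = 0.0305). That call was lost with scaling by library size alone (adjusted p = 0.0613), with the GC correction (0.0722), with the GC correction and the replicate block (0.134), and when any 1 of 5 of the 6 SK-OV-3 libraries was left out (adjusted p 0.0537 to 0.132), staying without BAY-850 replicate 3 (adjusted p = 0.0441). The test of the difference between the lines was not passed (-0.18, adjusted p = 0.292).

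The G1 kinases moved little. CDK4 (chromosome 12, 57747727 to 57756013, minus strand) ranged from 172 to 192 CPM with DMSO and from 188 to 212 CPM with BAY-850 in PA-1, and from 131 to 145 and from 141 to 145 CPM in SK-OV-3. The changes of 0.14 and 0.073 did not pass the test (adjusted p = 0.207 and 0.416). CDK4 shares reads with TSPAN31, which overlaps it on the other strand. The expected count of CDK4 was not whole in 11 libraries, and the sum of both genes was whole (within 0.005) in 11 of these 11, with TSPAN31 taking 10.8% to 17.6% of the sum. For the 2 genes summed the changes were 0.11 and 0.084. CDK6 (chromosome 7, 92604921 to 92836594, minus strand) ranged from 48.9 to 51.2 and from 44.9 to 49.7 CPM in PA-1, and its change of -0.060 did not pass (adjusted p = 0.613). In SK-OV-3 it ranged from 60.3 to 66.6 CPM with DMSO and from 53.8 to 59.3 CPM with BAY-850, all 3 treated libraries being lower, at -0.15 (adjusted p = 0.144).

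WEE1, the inhibitory kinase (chromosome 11, 9573681 to 9593457), was among the 3 most abundant of the 10 mRNAs per kb in all 4 groups. In CPM it ranged from 265 to 294 CPM with DMSO and from 247 to 266 CPM with BAY-850 in PA-1, and from 115 to 120.2 and from 105 to 106 CPM in SK-OV-3. The changes were of like size, -0.13 and -0.14, and neither passed the test (adjusted p = 0.193 and 0.0872). The difference between them was -0.025 with an approximate 95% interval of -0.16 to 0.12. With all 12 libraries in 1 fit the change in SK-OV-3 passed (-0.15, adjusted p = 0.0435).

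CDKN1C (p57), the Cip/Kip member known as an imprinted gene of growth control, lies on chromosome 11 from 2883213 to 2885773 on the minus strand. In PA-1 it was 31.9, 29.1 and 26.6 CPM with DMSO and 64.6, 67.2 and 74.5 CPM with BAY-850. The lowest treated library was far above the highest control. CDKN1C rose by 1.24 on the log2 scale (standard error 0.0787, adjusted p = 1.19e-07). In SK-OV-3 it was 23.0, 22.0 and 19.9 CPM with DMSO and 33.1, 35.5 and 33.8 CPM with BAY-850. These groups did not overlap either, and the rise was 0.67 (standard error 0.0859, adjusted p = 2.65e-04). The rise was larger in PA-1, by 0.58 (standard error 0.118, adjusted p = 4.09e-03 for the interaction of line and treatment), a difference not called with the replicate block and the GC correction together (adjusted p = 0.0777). Of 13861 genes tested in both lines, 152 were called higher in both, and CDKN1C was the 1 among the 10 genes. Both calls were kept in all 16 alternatives of processing in each line, with changes of 1.11 to 1.30 in PA-1 and of 0.61 to 0.72 in SK-OV-3. No expected count of CDKN1C was fractional.

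The genes beside CDKN1C on chromosome 11 were not called in PA-1, with 0 of 5 by edgeR and 0 by DESeq2, and 0 at an unadjusted p under 0.05 by edgeR. Over all genes 7.13% were called there by edgeR, so 0 of 5 does not set these genes apart. KCNQ1OT1, the noncoding RNA of the imprinted domain that holds CDKN1C, stood at 0.26 (adjusted p = 0.491) in PA-1 and at -0.16 (adjusted p = 0.582) in SK-OV-3. In SK-OV-3, 2 of 5 were called, in opposite directions, beside 20.4% of all genes. PHLDA2, an imprinted gene of placental growth, fell by 0.45 (adjusted p = 6.31e-03), and the transporter gene SLC22A18 rose by 0.66 (adjusted p = 0.0276).

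CDKN1A (p21), a Cip/Kip inhibitor known to rise after DNA damage, lies on chromosome 6 from 36676460 to 36687339. In PA-1 it was 19.6, 17.7 and 15.2 CPM with DMSO and 16.8, 20.6 and 16.0 CPM with BAY-850. The groups overlapped throughout, and the change was 0.026 with an approximate 95% interval of -0.20 to 0.25 (adjusted p = 0.923). In SK-OV-3 it was 18.2, 16.6 and 16.0 CPM with DMSO and 28.1, 28.9 and 21.6 CPM with BAY-850. The third treated library rose least but was still above every control, and CDKN1A rose by 0.64 (standard error 0.116, adjusted p = 2.64e-03). The third library is the one with fewer genes detected, and without it the change was 0.75, beside 0.35 for CDKN1B, 0.66 for CDKN1C and -0.49 for CDKN2C, all of them called. The rise exceeded that of PA-1 by 0.61 (standard error 0.190, adjusted p = 0.0448), a difference that was no longer called when any 1 of 8 of the 12 libraries was left out (adjusted p 0.0739 to 0.113).

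CDKN1B (p27), the inhibitor that accumulates in resting cells (chromosome 12, 12715058 to 12722371), was 91.9, 99.9 and 96.6 CPM in PA-1 with DMSO and 111, 103 and 106 CPM with BAY-850. The treated libraries were all higher, but the change of 0.16 did not pass the test (adjusted p = 0.121). In SK-OV-3 it was 36.3, 34.8 and 33.7 CPM with DMSO and 44.7, 44.6 and 51.0 CPM with BAY-850. There the groups were clearly apart, and CDKN1B rose by 0.44 (standard error 0.0832, adjusted p = 3.59e-03). The difference between the lines, 0.27, did not pass (adjusted p = 0.0646). It passed in 2 of 9 other alternatives, with DESeq2 (0.28, adjusted p = 0.0422) and with at least 10 counts in every library (0.29, adjusted p = 0.0465), and with 1 library left out the adjusted p was 0.0563 to 0.159. The rises of CDKN1A and CDKN1B in SK-OV-3 were called in all 16 alternatives.

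The promoter windows of CDKN1A and CDKN1B are shown as those of the Cip/Kip genes that rose in SK-OV-3 and are in the table. They lie at chr6:36678464-36678713 and chr12:12717118-12717367, both on the plus strand:
CDKN1A: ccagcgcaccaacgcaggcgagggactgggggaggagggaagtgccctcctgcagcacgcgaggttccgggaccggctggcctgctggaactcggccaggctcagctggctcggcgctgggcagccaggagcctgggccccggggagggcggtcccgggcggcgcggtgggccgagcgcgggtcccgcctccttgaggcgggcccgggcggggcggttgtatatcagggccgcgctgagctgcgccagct
CDKN1B: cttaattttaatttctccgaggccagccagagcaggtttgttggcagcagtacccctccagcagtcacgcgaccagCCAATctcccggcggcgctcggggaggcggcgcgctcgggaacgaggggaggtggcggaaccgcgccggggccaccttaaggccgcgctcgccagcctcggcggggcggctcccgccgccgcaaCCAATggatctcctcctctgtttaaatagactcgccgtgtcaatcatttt
CDKN1B held CCAAT 2 times, beginning 174 and 50 bases before the start, and GGGCGG once. CDKN1A held none of the strings in capitals, but GGGCGG, the letters of a GC box, 4 times, some of them overlapping each other or GCGCGG. The 2 windows shared GGGCGG and GCGCGG and differed in CCAAT.

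Per length, the summed level of the Cip/Kip family was higher with BAY-850 in both lines. It went from 59.0 ± 1.93 to 83.6 ± 1.65 CPM per kb of transcript in PA-1 and from 31.8 ± 1.78 to 46.8 ± 0.957 CPM per kb in SK-OV-3, with no overlap between the replicates of a line. CDKN1C made up 25.5% ± 1.79 of the family in PA-1 with DMSO and 42.4% ± 2.35 with BAY-850. The share of CDKN1B went from 61.4% to 48.2%, though its own level did not fall. That level was 36.2 CPM per kb with DMSO and 40.3 CPM per kb with BAY-850. In SK-OV-3 the share of CDKN1C was 35.2% ± 0.792 with DMSO and 37.7% ± 0.722 with BAY-850, again with no overlap, and all 3 genes rose there. Whether the shift in share differed between the lines was not tested. The stacked bars of each library show this make-up.

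**Figure D3:**
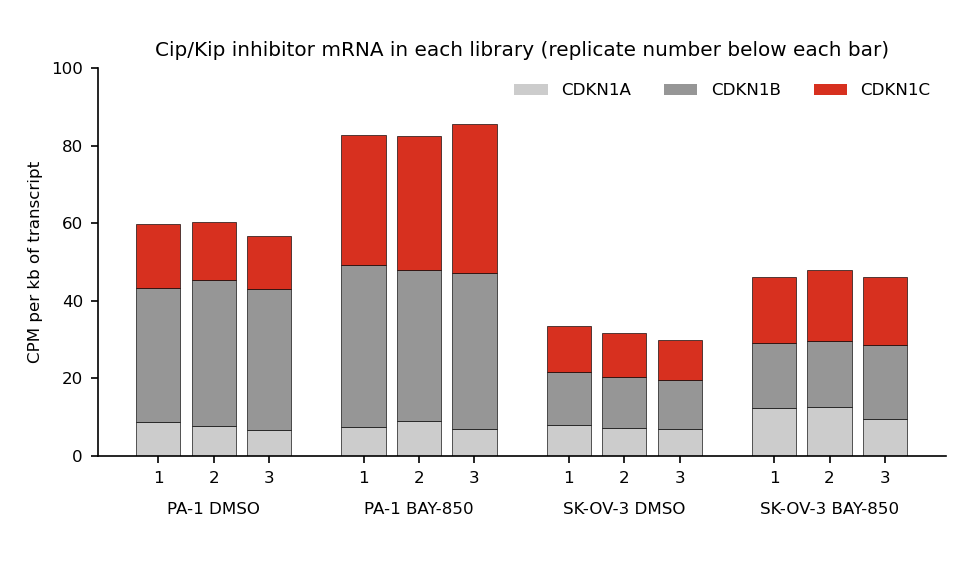
Level of CDKN1A, CDKN1B and CDKN1C per library in CPM per kb of the longest coding transcript, stacked, for 3 replicates of each group. The whole bars average 59.0 and 83.6 in PA-1 and 31.8 and 46.8 in SK-OV-3 without and with BAY-850, and the CDKN1C part grows most in PA-1.

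The INK4 genes set the lines apart. CDKN2C (p18), on chromosome 1 from 50960745 to 50974633, was 0.289, 0.355 and 0.255 CPM in PA-1 with DMSO and 0.388, 0.457 and 0.342 CPM with BAY-850. These values rest on 9 to 18 counts per library, and the change of 0.39 (standard error 0.517) could not be told from 0 at this depth. In SK-OV-3 it was 37.6, 36.4 and 37.8 CPM with DMSO and 27.3, 25.9 and 25.3 CPM with BAY-850. Every treated library was lower, and CDKN2C fell by 0.50 (standard error 0.0734, adjusted p = 7.08e-04), a call kept in all 16 alternatives. The response in SK-OV-3 was below that in PA-1 by 0.89 (standard error 0.248, adjusted p = 0.0407), a difference that rests on the few PA-1 counts. It was called in 6 of the 12 fits that each left out 1 library (adjusted p up to 0.165) and in 3 of 8 other alternatives (adjusted p up to 0.0947, DESeq2 0.0516).

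CDKN2C has 3 starts in the RefSeq table. The window of the second is shown for its E2F string and lies at chr1:50968456-50968705 on the plus strand:
CDKN2C: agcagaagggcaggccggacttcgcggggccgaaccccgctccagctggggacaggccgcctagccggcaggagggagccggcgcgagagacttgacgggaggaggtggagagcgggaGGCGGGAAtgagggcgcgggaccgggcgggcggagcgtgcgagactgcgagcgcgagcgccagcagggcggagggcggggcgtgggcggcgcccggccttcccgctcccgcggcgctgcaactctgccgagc
It held GGCGGGAA once, 132 bases before the start, GCGCGG once, 119 bases before it, and GGGCGG 5 times. Of the other starts, 1 window held CCAAT once and the other none of the strings in capitals. Of the 7 genes in the table, CDK1 and CDKN2C had an E2F string in a window.

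CDKN2A, whose row joins p16 and p14ARF read from the same locus, lies on chromosome 9 from 21967753 to 21995301 on the minus strand. In PA-1 it was 11.6, 8.58 and 13.5 CPM with DMSO and 11.4, 11.4 and 12.4 CPM with BAY-850. The treated values lay within the range of the controls, and the change of 0.074 did not pass (standard error 0.144, adjusted p = 0.809). In SK-OV-3 the count was 0 in all 6 libraries, where a count of 0 allows up to 0.0559 to 0.0794 CPM per library (3 counts, counting error only). With DMSO, CDKN2A was therefore at least 141-fold lower in SK-OV-3 than in PA-1. Its reads are shared with the paralog CDKN2B (p15), since the expected count was not whole in 5 libraries and the sum of both was whole in 5 of these 5, with CDKN2B taking 2.70% to 7.74% in those 5.

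CDKN2B was likewise at 0 in all 6 SK-OV-3 libraries, against 0.679 ± 0.274 CPM in PA-1 with DMSO, at least 8.55-fold lower. Of the genes around the pair, MTAP, KLHL9 and FOCAD were present in both lines. MTAP, the methionine salvage gene next to CDKN2A, was at 24.2 ± 1.46 CPM in PA-1 and 30.5 ± 3.17 CPM in SK-OV-3 with DMSO (log2 ratio 0.33, adjusted p = 5.64e-03). KLHL9 and FOCAD, farther along, were at 39.8 and 51.2 CPM in PA-1 with DMSO and at 28.5 and 23.6 CPM in SK-OV-3. Both were thus lower in SK-OV-3 with DMSO (log2 ratios -0.49 and -1.12, adjusted p = 9.19e-05 and 1.39e-08, edgeR). Between the lines 80.3% of all genes were called. CDKN2B-AS1, the antisense RNA of the locus, was at 0 in all 12 libraries, PA-1 included, and ELAVL2 and DMRTA1 on the other side of the pair were at 0.676 CPM or less on average in every group. Of these neighbours FOCAD alone was called with BAY-850, falling by 0.41 in SK-OV-3 (adjusted p = 7.22e-03). That is 0 of 4 tested in PA-1 and 1 of 4 in SK-OV-3, beside 7.13% and 20.4% of all genes.

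**Figure D4:**
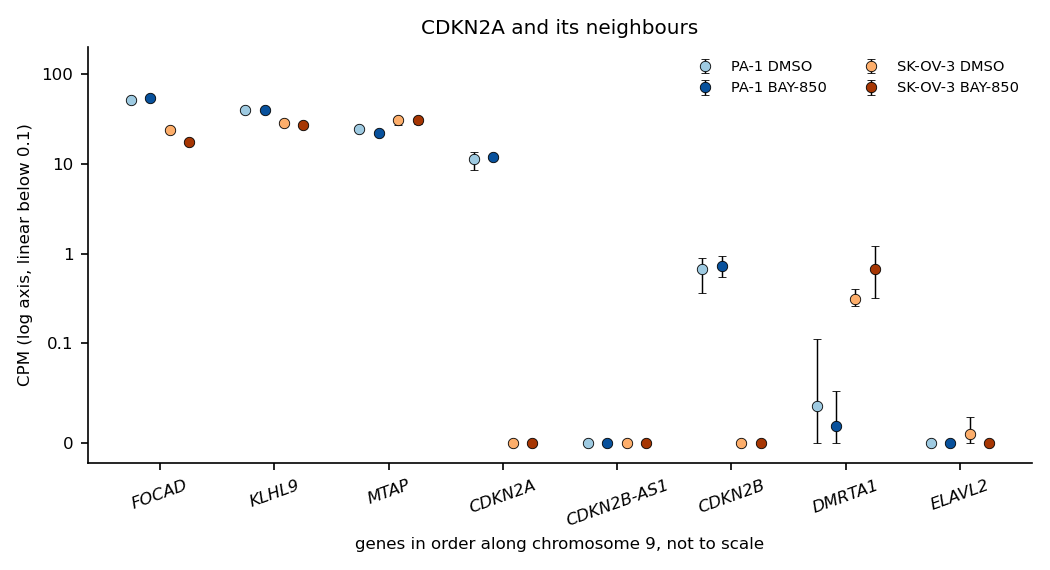
Mean level of CDKN2A and 7 neighbours in the 4 groups, in CPM on a log axis that is linear below 0.1, with bars from the lowest to the highest of 3 libraries. Genes are in order of their start and not to scale. In SK-OV-3, CDKN2A and CDKN2B are at 0 while MTAP, KLHL9 and FOCAD lie between 17.6 and 30.5 CPM.

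Between the lines with DMSO, 8 of the 10 genes differed, 2 higher and 6 lower in SK-OV-3, a share near the background of 80.3% of 16070 genes (40.1% higher and 40.2% lower). CDK6 (0.32) and CDKN2C (6.92) were higher in SK-OV-3. CDK1 (-0.46), CDK4 (-0.39), WEE1 (-1.27), CDKN1B (-1.46), CDKN1C (-0.43) and CDKN2A were lower there. CDK2 and CDKN1A did not pass the test, with log2 ratios of 0.045 and -0.054 (adjusted p = 0.553 and 0.668). WEE1 was thus 2.41-fold and CDKN1B 2.76-fold lower in SK-OV-3, and CDKN2C was 121-fold higher.

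Ranked per kb of transcript, CDK4 led in all 4 groups, at 86.4 ± 5.13 CPM per kb in PA-1 and 65.9 ± 3.46 CPM per kb in SK-OV-3 with DMSO. In PA-1 with DMSO it was followed by WEE1 (81.8) and CDK1 (75.5), whose replicates overlapped with those of the neighbour above, then by CDKN1B (36.2), CDK2 (16.2) and CDKN1C (15.1), the last pair overlapping. CDKN2A (8.73) and CDKN1A (7.73) also overlapped, and CDK6 (4.29) and CDKN2C (0.103) came last. With BAY-850, CDKN1C stood at 35.5 CPM per kb and had passed CDK2, with no overlap. In SK-OV-3 with DMSO, CDK1 (55.0) came before WEE1 (34.0), CDK2 (16.8), CDKN1B (13.1) and CDKN2C (12.8), the last pair overlapping, then CDKN1C (11.2), CDKN1A (7.46) and CDK6 (5.38). With BAY-850, CDKN1C (17.6) overlapped with CDKN1B (17.6) just behind WEE1, and CDKN2C (9.01) had dropped behind CDKN1A (11.6). These orders rest on the longest coding transcript of each gene, and the transcripts in use were not measured. In CPM with DMSO, WEE1 lay above CDK4 in PA-1 (281 and 179) and below it in SK-OV-3 (117 and 137). CDK6 lay above CDK2 in PA-1 (49.8 and 37.3) and in SK-OV-3 (62.4 and 38.6).

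The cyclins and other partners of these kinases are a list of 31 genes. In PA-1, 4 of 31 were called, 2 higher and 2 lower, beside 7.13% of all genes (4.65% higher and 2.48% lower). CCND2, a D-type cyclin, rose by 0.19 (adjusted p = 0.0426) and the phosphatase gene CDC25B, which activates CDK1, rose by 0.43 (adjusted p = 6.74e-04). CCNH and MNAT1, subunits of the kinase complex that activates CDKs, fell by 0.32 and 0.34 (adjusted p = 0.0112 and 8.62e-03). The third subunit, CDK7, had a change of -0.087 (adjusted p = 0.503). The median change of the list was -0.038, beside -0.0019 over all genes, and with the GC correction 2 were called, both of them higher. Without PA-1 DMSO replicate 1, PA-1 DMSO replicate 2 or PA-1 BAY-850 replicate 1, 2 were called, 1 in each direction.

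In SK-OV-3, 11 of 29 tested were called, 1 higher and 10 lower, beside 20.4% of all genes (10.8% higher and 9.56% lower). The genes that fell were CCNE2 and the cyclins A and B (CCNA1, CCNA2, CCNB1 and CCNB2), the phosphatase gene CDC25A, the transcription factor gene E2F1, SKP2, whose product targets p27 for degradation, CHEK1 and PLK1. CCNA1 went from 72.5 ± 1.19 to 36.1 ± 3.12 CPM (-0.99, standard error 0.0699, adjusted p = 2.91e-06), and CDC25A from 17.7 ± 2.16 to 9.51 ± 0.47 CPM (-0.88, standard error 0.122, adjusted p = 4.36e-04). SKP2 fell by 0.34 (adjusted p = 0.0361), CHEK1 by 0.44 (adjusted p = 2.60e-03) and PLK1 by 0.19 (adjusted p = 0.0237). CKS2, a small CDK-binding protein gene, rose by 0.22 (adjusted p = 0.0171). The median was -0.17, beside -0.0091 over all genes, and with the GC correction 7 were called, 1 higher and 6 lower, and 7 lower without SK-OV-3 DMSO replicate 3.

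Set beside the kinases, the partners of CDK2 and CDK1 had these values. Of the E cyclins, CCNE2 went from 12.8 ± 0.577 to 6.40 ± 0.679 CPM in SK-OV-3 (adjusted p = 3.74e-04), and CCNE1 stood at -0.15 (adjusted p = 0.427) in PA-1 and -0.12 (adjusted p = 0.436) in SK-OV-3. CCNA2, which binds CDK2 and then CDK1, stood at 0.017 in PA-1 (adjusted p = 0.892) and fell by 0.32 in SK-OV-3 (adjusted p = 7.31e-03), and the interaction passed (-0.35, adjusted p = 0.0112). The D-type cyclins of CDK4 and CDK6 were not called in SK-OV-3, with changes of 0.10 for CCND1 and 0.054 for CCND3, and CCND2 was at 0.14 ± 0.154 CPM with DMSO there, against 263 ± 6.56 CPM in PA-1. The interaction of line and treatment was called for 12 of 30 tested genes of the list, against 14.5% of all genes, and for 3 of 9 of the kinase and inhibitor genes (CDKN1A, CDKN1C and CDKN2C).

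**Figure D5:**
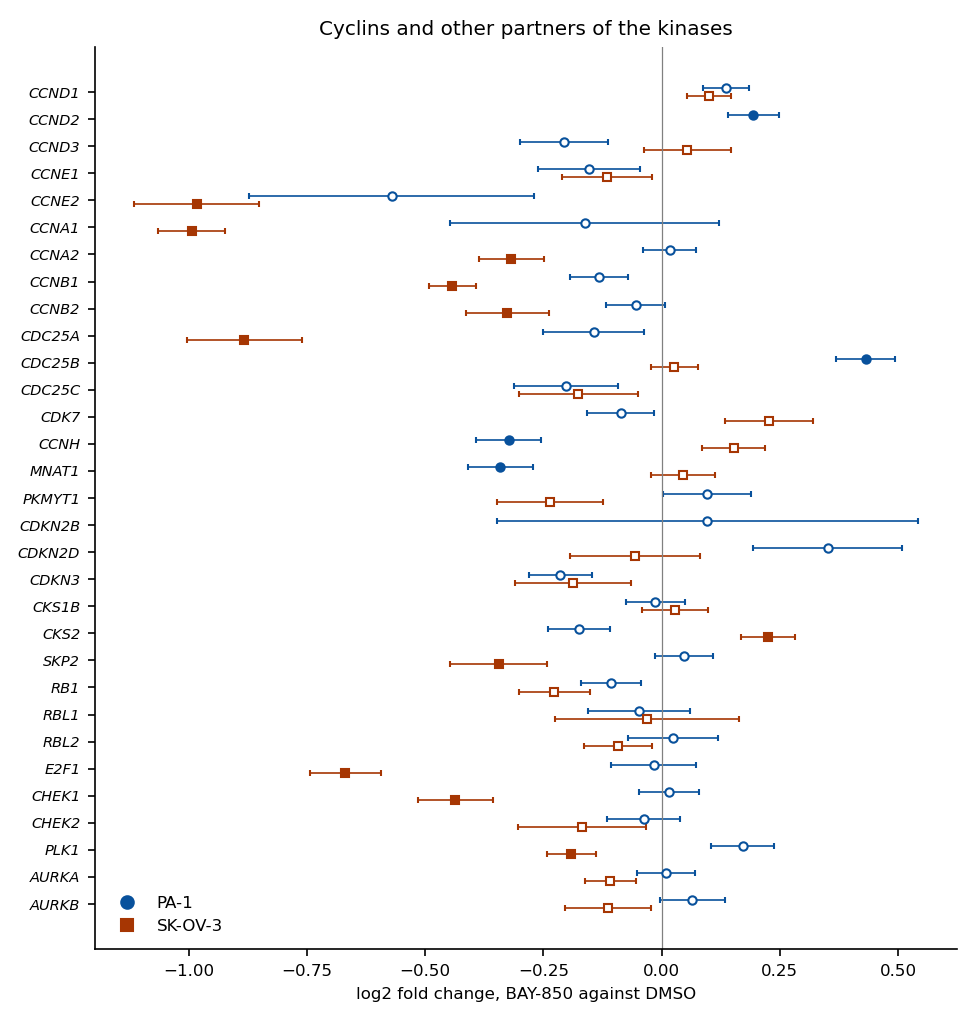
Log2 fold change of BAY-850 against DMSO for 31 cyclins, phosphatases, inhibitors and other partners of the kinases in PA-1 (circles) and SK-OV-3 (squares), with standard errors. Filled symbols have an adjusted p under 0.05 in edgeR, and CCND2 and CDKN2B have no SK-OV-3 value. In SK-OV-3, 10 of 11 called genes lie left of 0.

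The 6 genes called in a line were compared with 8702 others of at least 10 CPM on average in each line, by the Pearson correlation of log2 CPM over 12 libraries after centring within each line. The points share library, depth and treatment, and the values are descriptions. Closest to CDKN1C were the RNA demethylase gene ALKBH5 (0.980), the transcriptional repressor gene BHLHE40 (0.976) and MAP7D1 (0.974). Closest to CDKN1B were PLEKHA4 (0.974), KLHL17 (0.969) and STC2 (0.953), and to CDKN1A FAM102A (0.935), NKIRAS2 (0.930) and LEMD2 (0.920). CDK1 lay closest to HIGD1A (0.964), USP16 (0.954) and HSD17B11 (0.946), CDK2 to TMTC3 (0.945), STIL (0.935) and CTPS2 (0.933), and CDKN2C to RAP1GAP2 (0.932), EFNB1 (0.931) and UGGT1 (0.926). No gene of these 6 lists of 3 is in more than 1 of them.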

How the data were processed

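RNA was sequenced from 3 replicates of each of 4 groups. The labels describe mRNA selected with oligo-dT and strand-specific libraries, while the series text names ribosomal RNA depletion. Per the submitters' processing notes, reads were handled with Bowtie2 2.1.0 and RSEM 1.2.15 on hg38, and the annotation is not given in the sources used here. The authors deposited 1 table of expected counts per gene symbol, unnormalized. Where reads fit several genes RSEM divides them, and 8.94% to 12.4% of a library's values were not whole. Expected counts were rounded, and genes were kept by edgeR's filterByExpr. TMM factors and edgeR 4.0.16's quasi-likelihood test (R 4.3.3) compared BAY-850 with DMSO within each line, the lines with DMSO, and the interaction over 12 libraries. A standard error is the log2 fold change over the square root of F, and an approximate 95% interval is 1.96 standard errors either side. The labels do not say whether replicates are separate cultures, so p-values measure the spread between these libraries. Replicate pairs of a group differed by 4.96 to 70.8 chi-square per degree of freedom, so no library was a copy of another.

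The members and lists were chosen with earlier results of these data known. Named with values were the 10 genes, listed partners and neighbours called in a line or binding a member directly, and the 3 genes most like each called member. CDK7, KCNQ1OT1, MTAP, KLHL9, CDKN2B-AS1, DMRTA1 and ELAVL2 fall outside this rule and were named after their values were seen. A further list fixed with the design is not reported here. Gene positions, longest coding transcripts and GC content came from GENCODE 29 (GRCh38), which matched 23899 of 26475 symbols. The tests were run on counts simulated from the mean levels of these data and edgeR's estimate of their spread, with known changes added. Such counts hold no GC trend and no outlying library, so they cannot check the tests against these. Alternatives were DESeq2 1.42.0, library size alone, RLE factors, no filter, at least 10 counts in every library, 12 libraries in 1 fit, removal of ribosomal RNA genes, a replicate block, a GC offset (loess span 0.5), both together, leaving out each library, and, added after seeing the data, sums with the gene that shares reads.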

Additional observations from a re-analysis of the deposited data

Results flagged for a closer look

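For 3 of the 9 genes tested, the response to BAY-850 differed between the lines by the interaction of line and treatment in edgeR. Over all 16830 genes tested the share was 14.5%. CDKN1A responded more in SK-OV-3, by 0.61 on the log2 scale, with treated values higher than controls in 3 of 3 SK-OV-3 libraries and overlapping in PA-1. CDKN1C responded less in SK-OV-3 than in PA-1, by -0.58, though it was higher with BAY-850 in 3 of 3 libraries of each line. CDKN2C differed by -0.89, with 3 of 3 treated SK-OV-3 libraries below the controls and PA-1 values resting on 9 to 18 counts. The difference of CDKN1C was called without each of the 12 libraries in turn, that of CDKN1A in 4 of these 12 and that of CDKN2C in 6. Of the other alternatives of processing, the difference of CDKN1A was called in 9 of 9, that of CDKN1C in 8 of 9 and that of CDKN2C in 3 of 8.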

How the results depend on the processing

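Precision was limited for genes under 1 CPM, such as CDKN2C in PA-1. The rises of CDKN1C in both lines, and in SK-OV-3 those of CDKN1A and CDKN1B and the fall of CDKN2C, were called in all 16 alternatives. Leaving out 1 library gave 1 to 2 genes called in PA-1 (2 in the fit reported), 4 to 5 in SK-OV-3 (5), 1 to 3 for the interaction (3) and 8 to 8 between the lines (8). For the partners it gave 2 to 5 (4) in PA-1 and 7 to 13 (11) in SK-OV-3. The GC offset, alone and with the replicate block, left 1 of the 10 genes called in PA-1, 2 and 1 partners in PA-1 and 7 partners in SK-OV-3, and the block with the offset 1 gene for the interaction.

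The replicate numbers did not pair the samples, with correlations between -0.0278 and 0.00493 for the same number in PA-1 and between -0.0104 and 0.000741 in SK-OV-3. With the replicate number as a block, 931 genes were called in PA-1 and 2716 in SK-OV-3, against 1085 and 3130, and not every library correlated best with its own number. The causes of the shifts given here were not tested.

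Values near 0 changed sign. CDKN1A in PA-1 was -0.0038 with library size alone, -0.061 with the GC offset and with block and offset, and -0.090 to 0.11 with 1 library left out, negative without PA-1 DMSO replicate 3 (-0.064) or BAY-850 replicate 2. CDK6 in PA-1 was 0.027 and 0.026 with the offset and with block and offset, and CDKN2A in PA-1 was -0.033 and -0.018, and -0.090 to 0.23 with 1 library left out, negative without PA-1 DMSO replicate 2. For the interaction, WEE1 was 0.020 with library size alone, 0.011 with the offset, 0.0098 with block and offset and -0.059 to 0.022 with 1 library left out, positive without PA-1 DMSO replicate 3 or BAY-850 replicate 1 (0.0012), and CDK4 was 0.053 and 0.050 with the offset and with block and offset. Between the lines, CDK2 was -0.081 with either, and CDKN1A -0.14 to 0.030 with 1 library left out, positive without PA-1 DMSO replicate 1. The difference of CDKN1C was not called with block and offset (-0.44, adjusted p = 0.0777).

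Over all genes, 707 rose and 378 fell in PA-1, against 235 and 231 with library size alone. In SK-OV-3 1662 rose and 1468 fell, against 2025 and 1056 with the GC offset. The interaction had 1128 and 1307, against 1062 and 773 with library size alone and 1533 and 900 with the offset. Other counts of called genes that differed by over 1.5 times were, in PA-1, 1737 (DESeq2), 683 (12 libraries), 546 (offset) and 380 (block and offset). With 1 library left out they were 489 and 340 without PA-1 DMSO replicates 1 and 2 and 344 without PA-1 BAY-850 replicate 2. In SK-OV-3 they were 1781 and 1983 without DMSO replicates 2 and 3. All PA-1 fits that left out 1 library ranged from 340 to 1228.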
